A study of Mus musculus with 6 samples.

Results

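The genes described here encode proteins of the Z-disc of skeletal muscle and the caps of its thin filaments. They were the alpha-actinins Actn2 and Actn3, the myozenins Myoz1, Myoz2 and Myoz3, the titin cap Tcap, the PDZ-LIM protein Ldb3, myotilin (Myot) and the tropomodulins Tmod1 and Tmod4. They were found by name, by matching the transcript accession of each array probe to these symbols in a mouse gene table. Measured values played no part in that match. The list of genes itself was drawn up with earlier results of these data known, so the counts below are not an independent test. All 10 were among the 25005 genes and transcripts tested, through 16 probes, and all 16 probes passed the filter on dim signals.

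Expression was read in quadriceps muscle from male AR97Q mice, which model the motor neuron and muscle disease SBMA (spinal and bulbar muscular atrophy) and carry a disease transgene on a C57BL/6J background. Mice of the exercise group had run in a forced wheel at 5 m/min for 60 min on 5 days of each week, from 5 weeks of age for 4 weeks, and tissue was taken at 9 weeks of age, on the day after the last run. Mice of the sedentary group carried the same transgene, were of the same age and did not run. Each group held 3 mice with 1 Agilent single-colour array per mouse, and no array of a wild-type mouse was analysed here, so every difference below is one between exercised and sedentary mice that all carry this transgene. The sources used here do not give the promoter that drives the transgene.

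The Z-disc is the border between neighbouring sarcomeres, where alpha-actinin crosslinks the barbed ends of actin filaments from both sides and where titin is anchored by Tcap. Myozenins, Ldb3 and myotilin bind alpha-actinin there and tie the lattice to filamin and to signalling proteins. Tropomodulins do not sit at the Z-disc but cap the opposite, pointed ends of the same filaments and so help to set their length. In mouse muscle, Actn3, Myoz1, Myoz3 and Tmod4 are known from fast-twitch fibres, Myoz2 from slow-twitch fibres and the heart, and Actn2 from all striated muscle.

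The table of promoters used here, from RefSeq on build GRCm38.p6, held 5 of the 10 genes, Tmod4, Ldb3, Myoz2, Actn2 and Tmod1. The 250 bases before the transcription start are shown for a pair of genes that rose in the exercise group, Tmod4 and Ldb3, and for the pair that did not pass the test, Myoz2 and Actn2. They are written 5′ to 3′ on the strand of the gene, and capitals mark matches to the E box CANNTG, the MEF2 site or the SRF CArG box. The Tmod4 window is chr3:95124264-95124513 on the forward strand, and the windows on the reverse strand are chr14:34588682-34588931 for Ldb3, chr3:123034988-123035237 for Myoz2 and chr13:12340733-12340982 for Actn2. The windows of Tmod4, Ldb3 and, given below, Tmod1 lie inside the annotated span of the gene. Each precedes a start downstream of the outermost one. The Myoz2 window spans the outermost start of its gene.
Tmod4: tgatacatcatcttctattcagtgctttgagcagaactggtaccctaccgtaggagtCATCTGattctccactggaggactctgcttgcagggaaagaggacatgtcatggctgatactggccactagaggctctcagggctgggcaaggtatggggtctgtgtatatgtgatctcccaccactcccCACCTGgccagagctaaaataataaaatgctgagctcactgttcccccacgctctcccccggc
Ldb3: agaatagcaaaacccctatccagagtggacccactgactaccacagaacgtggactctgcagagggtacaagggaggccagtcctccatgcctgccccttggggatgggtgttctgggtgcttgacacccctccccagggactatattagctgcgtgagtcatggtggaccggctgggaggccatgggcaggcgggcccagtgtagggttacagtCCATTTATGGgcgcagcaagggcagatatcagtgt
Myoz2: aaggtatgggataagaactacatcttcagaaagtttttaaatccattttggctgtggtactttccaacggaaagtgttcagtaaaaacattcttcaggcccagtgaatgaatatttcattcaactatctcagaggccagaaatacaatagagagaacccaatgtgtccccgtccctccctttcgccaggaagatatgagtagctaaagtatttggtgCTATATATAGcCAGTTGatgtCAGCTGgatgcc
Actn2: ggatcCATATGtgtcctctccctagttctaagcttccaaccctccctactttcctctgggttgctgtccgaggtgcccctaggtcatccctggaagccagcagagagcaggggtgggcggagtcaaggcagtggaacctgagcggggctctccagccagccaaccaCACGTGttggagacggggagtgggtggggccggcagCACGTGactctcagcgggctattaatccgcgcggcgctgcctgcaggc

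The motifs were searched on both strands, and CAGCTG is 1 of the forms of CANNTG. Tmod4 held 2 matches to CANNTG, at -193 to -188 and at -63 to -58 before its start. Ldb3 held no CANNTG but a CArG box at -35 to -26, and the table lists a second, overlapping Ldb3 window in which the same CArG box lies at -109 to -100. Myoz2 held a MEF2 site at -33 to -24 and 2 matches to CANNTG, 1 of them the form CAGCTG at -12 to -7, and Actn2 held 3 matches to CANNTG. Tmod1, at chr4:46038972-46039221 on the forward strand, held no match to any of these motifs, and none of the 5 genes held TATAAA. Over all 32851 promoters of the table, 66.2% held CANNTG, 13.0% CAGCTG, 12.4% TATAAA, 2.92% the MEF2 site and 1.47% the CArG box. CANNTG, the most common of these motifs, was held by both genes that did not pass the test, by Tmod4 and not by Ldb3.

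Values are log2 of the processed signal, an intensity corrected for background, relative to the 75th percentile of the same array. They are positive for a probe brighter than that percentile, and they compare a gene between arrays but not one gene with another. That percentile was 251 to 257 in exercise and 310 to 384 in sedentary mice, 54.6 to 59.9% of probes were well above background per array, and 0 spots were saturated. All 6 arrays lay on 1 slide read in 1 scan. Each array's barcode ends in 2 numbers, and arrays with the same first number are called a strip of the slide here. There are 2 such strips. The exercise arrays share one with sedentary mouse 1, whereas sedentary mice 2 and 3 lie alone in the other. The changes, with their standard errors (SE), are therefore also given within the shared strip, as the mean of the exercise arrays minus sedentary mouse 1, a value that rests on 1 sedentary array and has no test. Groups were compared with limma, with Benjamini-Hochberg adjustment over everything tested, and a DEG has an adjusted p under 0.05 and a log2 fold change of 1 or more in size. Bulk RNA cannot tell fewer cells of a type from less RNA per cell.

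Of the 10 genes, 8 were higher in the exercise group with an adjusted p under 0.05, namely Actn3, Myoz1, Myoz3, Tcap, Ldb3, Myot, Tmod1 and Tmod4. Among everything tested, 11.5% passed as higher. Of the 8, 6 were upregulated DEGs, all but Myot and Tmod1, against 1.72% of everything tested. No gene of the 10 passed as lower by limma, as 6.12% of everything tested did, and none had an unadjusted p under 0.05 as lower, as 15.4% did. For the same 8 genes each exercise array was above each sedentary array, as it was for 25.0% of everything tested, and no gene of the 10 showed the reverse, seen in 18.2%. The median log2 fold change was 1.04 over the 10 genes and 0.026 over everything tested. Leaving out exercise mouse 1, 2 or 3 or sedentary mouse 2 or 3 left 0 of the 10 past the adjusted threshold by limma, although in each case the 8 had an unadjusted p under 0.05 as higher.

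**Figure D1:**
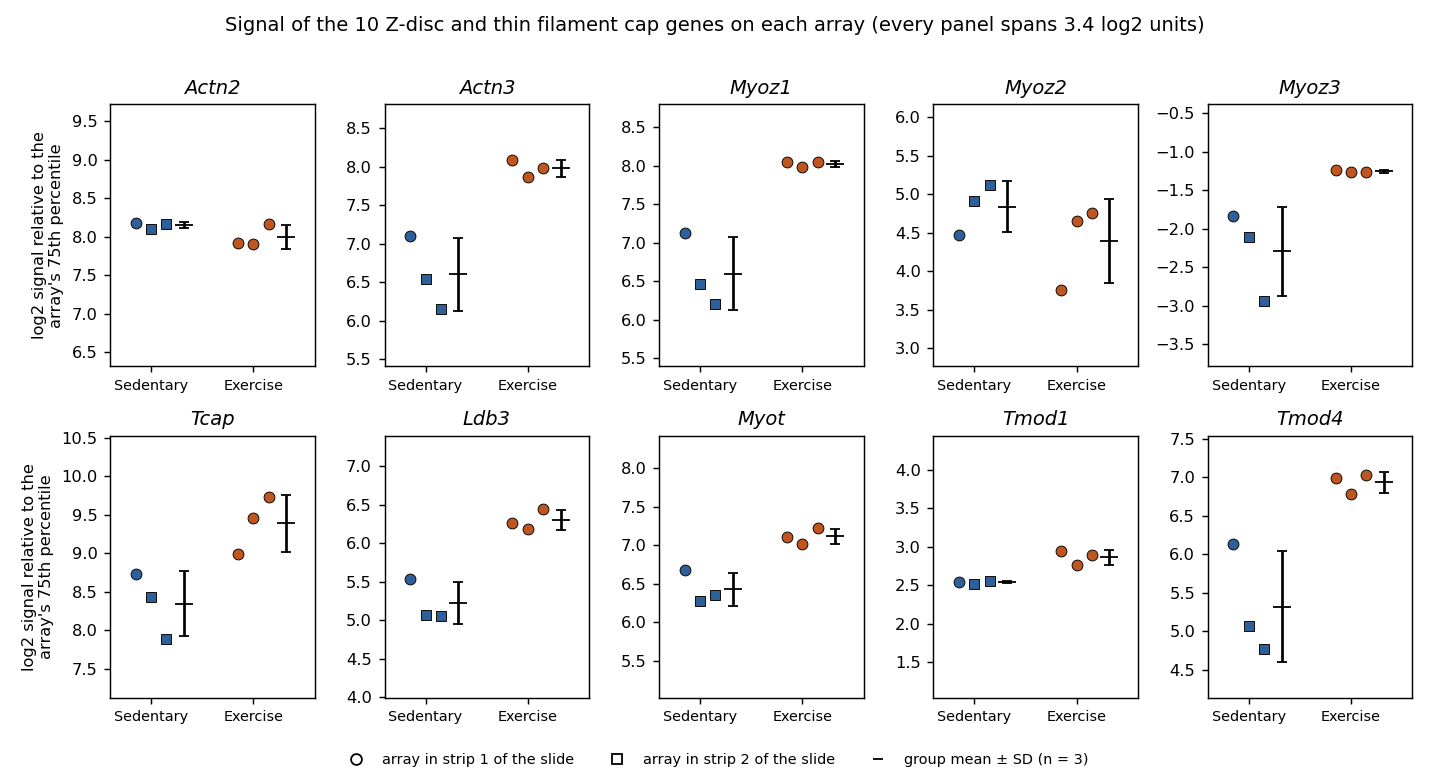
Log2 signal relative to the array's 75th percentile for each of the 10 genes, with 1 point per array, circles for the strip of the slide that holds both groups, squares for the strip with sedentary mice 2 and 3, and the group mean ± SD (n = 3) beside the points. The exercise arrays lay above the sedentary arrays for 8 genes, of which Tmod1 changed direction without scaling between arrays and with spike-in scaling, while Actn2 and Myoz2 overlapped.

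The alpha-actinins are the crosslinkers of the Z-disc, and in this pair the fast-fibre form rose and the general form did not pass the test. Actn3 read 8.09, 7.86 and 7.98 on the exercise arrays and 7.10, 6.54 and 6.16 on those of sedentary mice 1, 2 and 3. The lowest exercise array lay above the highest sedentary array, and sedentary mouse 1 was the nearest of its group. Actn3 rose by 1.38 on the log2 scale (SE 0.24, adjusted p by limma = 0.0241), a 2.60-fold rise, and 0.87 within the shared strip.

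Actn2 read 7.92, 7.90 and 8.17 on the exercise arrays and 8.18, 8.10 and 8.16 on the sedentary arrays. The groups overlapped, since exercise mouse 3 lay within the sedentary range. Its log2 fold change was -0.15 (SE 0.10, adjusted p by limma = 0.325, 95% confidence interval -0.40 to 0.10), and it was -0.18 within the shared strip. The interval leaves no room for a rise as large as that of Actn3 on this scale. A second Actn2 probe gave -0.22. Under quantile normalization, no scaling and spike-in scaling Actn2 passed as lower, at -0.58, -0.62 and -0.69 (limma adjusted p = 0.0341, 0.0151 and 0.0202). Without scaling and with spike-in scaling the median of everything tested was itself -0.45 and -0.51, and 11280 and 10584 of 25005 passed as lower. With quantile normalization that median was -0.019, and 1363 passed as lower.

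Myozenins, also called calsarcins, bind alpha-actinin and the phosphatase calcineurin. Myoz1 read 8.05, 7.98 and 8.05 on the exercise arrays and 7.13, 6.46 and 6.21 on the sedentary arrays. The exercise arrays agreed to within 0.1, far less than the spread of the sedentary arrays. Myoz1 was higher by a log2 fold change of 1.43 (SE 0.23, adjusted p by limma = 0.0237), a 2.69-fold rise, and 0.90 within the shared strip.

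Myoz3 read -1.23, -1.26 and -1.26 on the exercise arrays and -1.84, -2.10 and -2.94 on the sedentary arrays. Sedentary mouse 3 was the lowest of all arrays, and the groups did not overlap. The rise of Myoz3 was 1.04 on the log2 scale (SE 0.28, adjusted p by limma = 0.0499), which lies at the edge of the threshold, and 0.58 within the shared strip. In a fit with 1 row per probe, in place of 1 per gene, the same values had an adjusted p of 0.0510 by limma. The Myoz3 probe was dim, at 35.2% in the ranking of everything tested by brightness. With another background correction (normexp) the rise was 0.65 (limma adjusted p = 0.0153), too small for a DEG.

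Myoz2, the myozenin of slow-twitch fibres and heart, did not pass the test. It read 3.76, 4.65 and 4.76 on the exercise arrays and 4.47, 4.92 and 5.13 on the sedentary arrays. Exercise mouse 1 was the lowest, and the other exercise arrays lay inside the sedentary range. For Myoz2 the log2 fold change was -0.45 (SE 0.31, adjusted p by limma = 0.329, 95% confidence interval -1.19 to 0.29), and it was -0.08 within the shared strip. A second Myoz2 probe gave -0.53. With spike-in scaling Myoz2 passed as lower at -0.99 (limma adjusted p = 0.0348). In that fit the median of everything tested was -0.51, and 10584 of 25005 passed as lower.

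Tcap, or telethonin, joins the ends of titin molecules at the Z-disc. It read 8.99, 9.45 and 9.72 on the exercise arrays and 8.72, 8.43 and 7.88 on the sedentary arrays. Both groups were spread, and exercise mouse 1 lay only a little above sedentary mouse 1. Tcap rose by 1.04 on the log2 scale (SE 0.27, adjusted p by limma = 0.0477), a 2.06-fold rise, and 0.66 within the shared strip.

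Myotilin, which binds alpha-actinin, filamin and actin, rose less. It read 7.11, 7.02 and 7.22 on the exercise arrays and 6.68, 6.27 and 6.35 on the sedentary arrays, without overlap. Myot rose by 0.69 on the log2 scale (SE 0.13, adjusted p by limma = 0.0265), past the FDR but too small for a DEG, and 0.44 within the shared strip.

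Ldb3, known as Cypher or ZASP, binds alpha-actinin through its PDZ domain and occurs in several splice forms. Its brightest probe, designed on NM_001039076, read 6.27, 6.19 and 6.44 on the exercise arrays and 5.54, 5.07 and 5.06 on the sedentary arrays. Sedentary mouse 1 stood between sedentary mice 2 and 3 and the exercise arrays. At this probe Ldb3 rose by 1.08 on the log2 scale (SE 0.16, adjusted p by limma = 0.0234), a 2.11-fold rise, and 0.76 within the shared strip.

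The other Ldb3 probe, designed on NM_011918, gave a smaller change. It read 4.90, 4.65 and 4.89 on the exercise arrays and 4.66, 4.59 and 4.67 on the sedentary arrays, and exercise mouse 2 lay inside the sedentary range. Its log2 fold change was 0.17 (SE 0.10, adjusted p by limma = 0.263 in the fit of all probes). The difference between the probes was then taken on each array, after their values had been seen. It was 1.37, 1.54 and 1.55 in exercise and 0.88, 0.48 and 0.38 in sedentary mice, so that it grew by 0.90 without overlap, and by 0.60 within the shared strip. The two-sided exact permutation p was 0.1, the smallest that 3 arrays against 3 allow. The array files do not give probe positions, so which Ldb3 exons or splice forms each probe reads was not determined here.

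Tropomodulins cap pointed ends. Tmod4, the form of skeletal muscle, had the largest rise of the 10 genes over all arrays, though within the shared strip it lay below Myoz1 and Actn3. Its brightest probe read 7.0, 6.78 and 7.03 on the exercise arrays and 6.13, 5.07 and 4.77 on the sedentary arrays. Sedentary mouse 1 lay over 1 log2 unit above the other sedentary arrays, and still below all exercise arrays. Tmod4 rose by 1.61 on the log2 scale (SE 0.35, adjusted p by limma = 0.0322), a 3.06-fold rise, and 0.80 within the shared strip. The other Tmod4 probes gave 1.64 and 1.69.

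Tmod1, found in many tissues including red blood cells and heart, rose by a small amount. It read 2.94, 2.76 and 2.89 on the exercise arrays and 2.55, 2.52 and 2.55 on the sedentary arrays, and the sedentary arrays were nearly alike. Tmod1 was higher by 0.32 on the log2 scale (SE 0.085, adjusted p by limma = 0.0489), a 1.25-fold difference, and 0.32 within the shared strip too. It turned to -0.15 without scaling between arrays and to -0.22 with spike-in scaling, where the median of everything tested was -0.45 and -0.51. The second probe of Tmod1 gave 0.33. In the fit with 1 row per probe the brighter probe had an adjusted p of 0.0521 by limma.

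**Figure D2:**
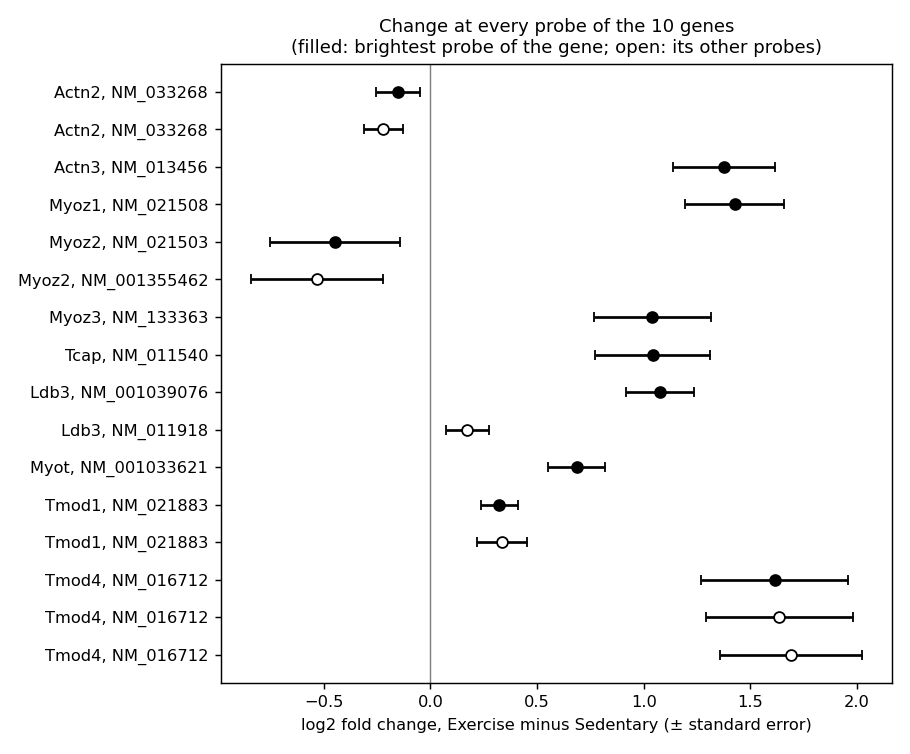
Log2 fold change, exercise minus sedentary, with its standard error for each of the 16 probes of the 10 genes (filled for the brightest probe of a gene, open for its other probes), labelled with the transcript each was designed on. Probes of Actn2, Myoz2, Tmod1 and Tmod4 lie close together within each gene, whereas the Ldb3 probes stand apart at 1.08 and 0.17.

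Members of 1 family were then compared on the same array, since a difference within an array does not depend on a factor that scales the whole array. Probes differ in how brightly they read, so such a difference has no meaning as a level, but its change between groups does. Actn3 minus Actn2 was 0.17, -0.03 and -0.19 in exercise and -1.08, -1.56 and -2.0 in sedentary mice. The difference was thus larger by 1.53 in the exercise group. For Myoz1 minus Myoz2 the exercise mean was 3.63 ± 0.57 (SD, n = 3) and the sedentary mean 1.76 ± 0.81 (SD, n = 3), a change of 1.87. Myoz3 minus Myoz2 changed by 1.49, and Tmod4 minus Tmod1 by 1.29, with an exercise mean of 4.07 ± 0.06 (SD, n = 3) and a sedentary mean of 2.78 ± 0.72 (SD, n = 3). In none of the 4 pairs did the groups overlap. Each had a two-sided exact permutation p of 0.1, the smallest possible here, and of 0.1 after adjustment over the 4 pairs. Within the shared strip the changes were 1.06 for Actn3 and Actn2, 0.98 for Myoz1 and Myoz2, 0.67 for Myoz3 and Myoz2 and 0.48 for Tmod4 and Tmod1, smaller in each case, with sedentary mouse 1 nearest to the exercise arrays. The Myoz1 and Myoz3 pairs share the Myoz2 values and are not independent of each other.

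**Figure D3:**
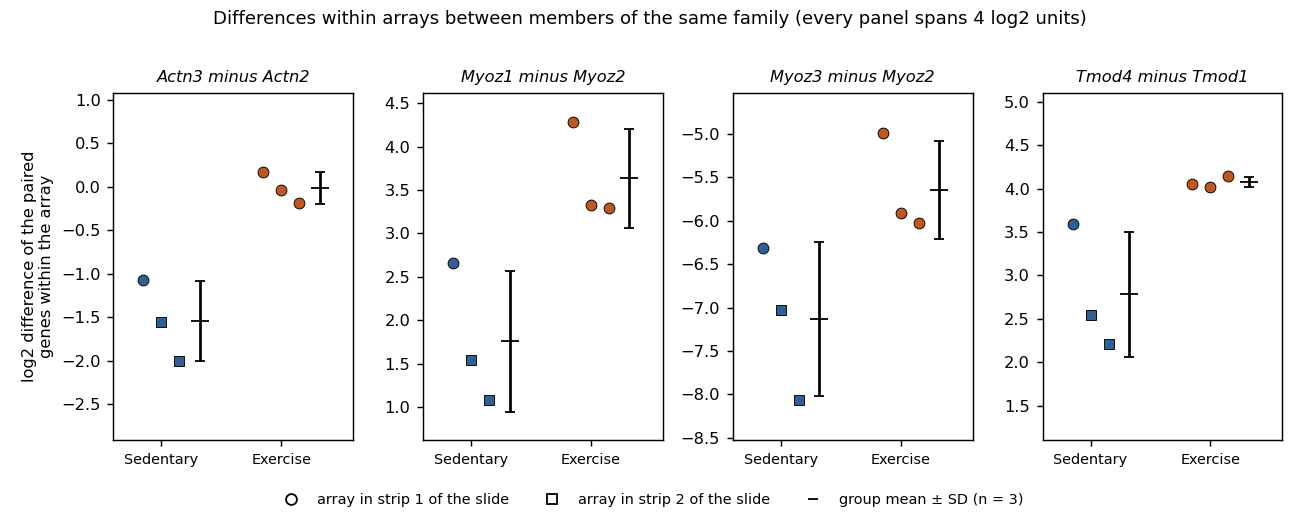
Log2 difference between genes of 1 family on the same array, with 1 point per array, circles and squares for the strips of the slide and the group mean ± SD (n = 3). The exercise arrays lay above the sedentary arrays in all 4 pairs, and sedentary mouse 1 was the highest sedentary array in each.

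The genes whose values over the 6 arrays lay closest to those of each gene were found from the root mean square distance between log2 values centred on the gene's own mean, among all tested genes with a matched symbol. Actn3 lay closest to Tbl3, Gm35107 and Snph, at distances of 0.056, 0.063 and 0.064. Myoz1 lay closest to Rpl3l, Gm35107 and Ckm, the muscle creatine kinase, at 0.046, 0.049 and 0.065. Actn3 and Myoz1 were 0.067 apart, which is the smallest distance among the 10 genes, and Tmod4 was 0.18 from Myoz1. Tmod4 lay closest to Pvalb, the calcium buffer parvalbumin, at 0.045, followed by Emid1 and Mlf1.

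Ldb3 lay closest to Gpcpd1, to Adssl1, the muscle adenylosuccinate synthase, and to Mylpf, the fast regulatory myosin light chain, at 0.040, 0.042 and 0.053. Myot lay closest to Dnajb5, to Ryr1, the calcium release channel of the sarcoplasmic reticulum, and to Rbfox1, a splicing factor, at 0.034, 0.043 and 0.043. The neighbours of Tcap were Bhlhe40, Spns3 and Dusp7, those of Myoz3 were Megf11, Wfdc1 and Cbr2, and those of Tmod1 were Rab28, Cfap298 and Mrpl16. Actn2 lay closest to Tkt, Creb1 and Dusp16, and Myoz2 to Kcns3, Calr3 and Adcy3. Myoz2 was over 1 log2 unit from Actn3, Myoz1 and Tmod4, at 1.09, 1.10 and 1.25. Distances over 6 arrays describe these arrays only, and between genes that differ strongly between the groups they mostly follow that difference.

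Other sarcomere genes were taken in 5 lists, with 59 of 60 genes tested. Nebl, a nebulin relative, was not tested because none of its probes was well above background on 3 arrays. Of the 59, 10 passed as higher and 3 as lower by limma, and 33 were higher and 26 lower in all, with a median log2 fold change of 0.068. At an unadjusted p under 0.05, 20 were higher and 12 lower, beside 21.6% and 15.4% of everything tested. The median of these lists lay far nearer to that of everything tested than to the 1.04 of the 10 genes, and the difference was not tested.

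Of 20 other Z-disc proteins and their LIM, PDZ-LIM and signalling partners, 5 rose and 1 fell, with a median of 0.22. Pdlim7, which like Ldb3 pairs a PDZ domain with LIM domains, read 4.70, 4.46 and 4.54 in exercise and 3.83, 3.51 and 3.36 in sedentary mice. Its log2 fold change was 0.99 (SE 0.14, adjusted p by limma = 0.0234), but its second probe gave 0.25 (adjusted p = 0.405 in limma's fit of all probes), and with spike-in scaling Pdlim7 came to 0.45 (limma adjusted p = 0.0623). Ankrd23, an ankyrin repeat protein that binds titin, rose by 0.80 (SE 0.13, adjusted p by limma = 0.0236), and its second probe gave 1.47, but it did not pass with quantile normalization (0.55, limma adjusted p = 0.0569), without scaling (0.33, limma adjusted p = 0.115) or with spike-in scaling (0.26, limma adjusted p = 0.308). Fhl2, a LIM-only protein, fell by 0.72 (SE 0.15, adjusted p by limma = 0.0308), with 0.24, 0.40 and 0.43 in exercise and 0.78, 1.29 and 1.15 in sedentary mice. Within the shared strip the changes of Pdlim7, Ankrd23 and Fhl2 were 0.73, 0.77 and -0.42.

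Of 18 proteins that link the Z-disc to intermediate filaments, filamin and chaperones, 1 rose and 0 fell by limma, 3 had an unadjusted p under 0.05 in each direction, and the median was -0.078. Synm, which encodes the intermediate filament protein synemin, was the one that rose, by 0.98 (SE 0.23, adjusted p by limma = 0.0370), and by 0.97 on its second probe. Synm did not pass under the other scalings, at 0.80 with quantile normalization, 0.51 without scaling, 0.44 with spike-in scaling and 0.82 in the authors' table (limma adjusted p between 0.0565 and 0.100). It was 0.59 within the shared strip. Of 9 tested genes for the ends and length of thin filaments, 3 rose and 1 fell, with a median of -0.040. The 3 that rose encode the capping protein of the barbed end, which anchors the filament at the Z-disc. Capza2 was higher by 0.47 (SE 0.099, adjusted p by limma = 0.0308) and Capzb by 0.46 (SE 0.11, adjusted p by limma = 0.0412), but without scaling between arrays they came to -0.0027 and -0.011, and with spike-in scaling to -0.069 and -0.077. The third was Capza1, at 0.34, which came to -0.14 and -0.20 under these scalings. None of the 3 passed with quantile normalization or in the authors' table (limma adjusted p between 0.0853 and 0.284). The other Capza2 probes gave 0.30 (adjusted p = 0.167 in limma's fit of all probes) and 0.54, and the other Capzb probe 0.44. Within the shared strip Capza2, Capzb and Capza1 were at 0.55, 0.39 and 0.27. Klhl40, which stabilises nebulin and leiomodin, fell by 0.50 (SE 0.12, adjusted p by limma = 0.0403), and by 0.54 on its second probe, with -0.28 within the shared strip.

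Of 5 relatives of the 10 genes that belong mainly to other tissues (Actn1, Actn4, Tmod2, Tmod3 and Lmod1), 0 rose and 1 fell by limma, and 0 were higher and 3 lower at an unadjusted p under 0.05. Lmod1, the leiomodin of smooth muscle, fell by 0.76 (SE 0.18, adjusted p by limma = 0.0381), with -0.74 within the shared strip, and did not pass with quantile normalization (-0.80, limma adjusted p = 0.0909). Its 1 kept probe was dim, at -5.01, -4.55 and -4.38 in exercise and -3.90, -3.75 and -4.00 in sedentary mice. Of 7 genes for titin and the M-band, 1 rose, with a median of 0.28.

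Part of the general markers of skeletal muscle rose too. Of 8 such genes, 5 passed as higher by limma (Ckm, Acta1, Mb, Myh4 and Pygm) and 0 as lower, also without adjustment, while Myh1, Myh2 and Myh7 did not pass, at 0.41, 0.42 and -0.35 on the log2 scale, with a median log2 fold change of 0.86. Their summed level, in multiples of the array's 75th percentile, was 2938 to 3415 on the exercise arrays and 1477 to 2152 on the sedentary arrays, and sedentary mouse 1 was the highest of its group. Of 5 smooth muscle markers, among them Lmod1, 2 fell, with sums of 61.5 to 62.3 in exercise and 65.0 to 80.7 in sedentary mice. Of 2 tested satellite cell markers 1 fell, with sums of 5.43 to 5.99 and 6.75 to 8.52. All 5 Schwann cell markers were lower, 1 of them past the test, with a median log2 fold change of -0.34. Their sums were 12.3 to 17.6 in exercise and 17.5 to 22.5 in sedentary mice. The 4 tested red blood cell markers were all higher, with a median of 0.47, and 0 passed the test. Of 6 adipocyte markers 5 were lower and 1 higher, with a median log2 fold change of -0.85, but the 5 lower ones did not pass the test and 1, Lep, passed as higher at 0.35. The sums of adipocyte, endothelial, fibroblast, macrophage, Schwann cell and red blood cell markers overlapped between the groups. Of 5 cardiac muscle markers 3 were tested, and their sum stayed between 0.41 and 0.79 on all arrays, while Myl7 and Ryr2 did not pass the filter on dim signals. The part of any of these in the rise of the 8 genes was not tested.

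The change also followed brightness. Among the 10% of genes with the brightest probes, which include 8 of the 10 genes, the median log2 fold change was 0.21 and 83.0% were higher in the exercise group, whereas the median over everything tested was 0.026. Of these 8, Actn3, Myoz1, Tcap, Ldb3, Tmod4 and Myot lay above that median, while Actn2 and Myoz2 lay below it. Quantile normalization, which removes differences in distribution between arrays, brought the median of the brightest 10% to -0.042. Under it Actn3, Myoz1 and Ldb3 still passed, at 1.02, 1.09 and 0.83 (limma adjusted p = 0.0418, 0.0369 and 0.0317), while Tmod4 (1.35), Myoz3 (1.12), Tcap (0.53), Myot (0.40) and Tmod1 (0.22) did not, with limma adjusted p = 0.0519, 0.0518, 0.179, 0.0888 and 0.119.

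**Figure D4:**
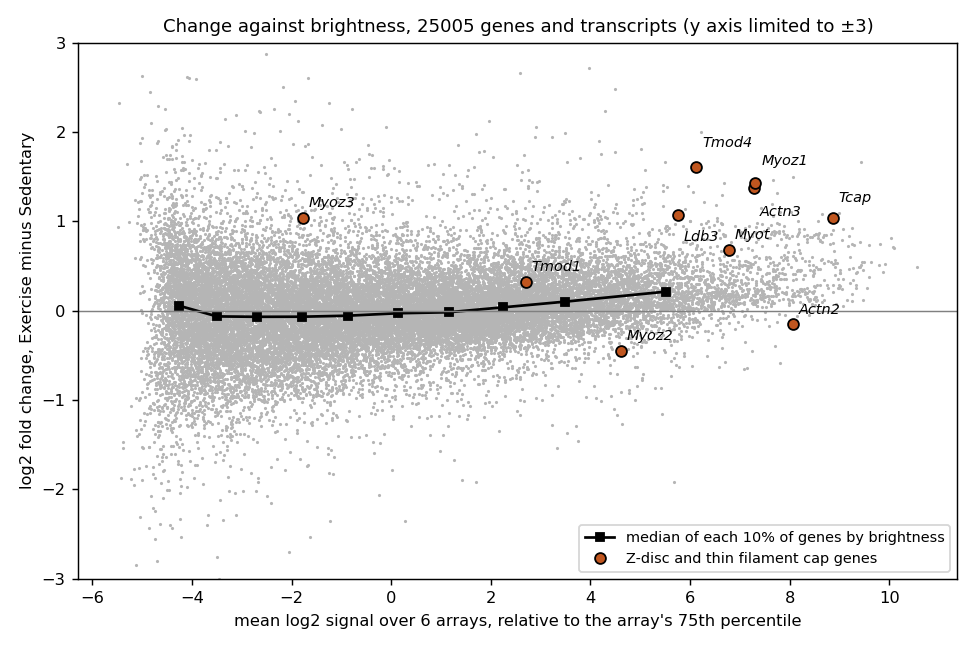
Log2 fold change, exercise minus sedentary, against the mean log2 signal over 6 arrays for 25005 genes and transcripts (grey), with the median of each 10% by brightness (squares) and the 10 Z-disc and thin filament cap genes (orange). The median rises to 0.21 in the brightest 10%, and Tmod4, Myoz1, Actn3, Ldb3, Tcap and Myot lie above it while Actn2 and Myoz2 lie below.

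Scaling between arrays moved all values, since the raw signal was lower on each exercise array than on any sedentary array. The median log2 fold change of everything tested was -0.45 without scaling, -0.51 with spike-in scaling and -0.13 in the authors' table of values. Relative to that median, the median of the 10 genes stayed at 1.02 under these scalings, by construction, and was 0.70 with quantile normalization. Actn3, Myoz1, Ldb3 and Tmod4 passed as higher without scaling (0.90, 0.95, 0.60 and 1.14), with spike-in scaling (0.84, 0.89, 0.54 and 1.07) and in the authors' table (1.22, 1.27, 0.92 and 1.46), all with a limma adjusted p between 0.0117 and 0.0406. Myoz3, Tcap, Myot and Tmod1 did not pass in any of these.

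**Figure D5:**
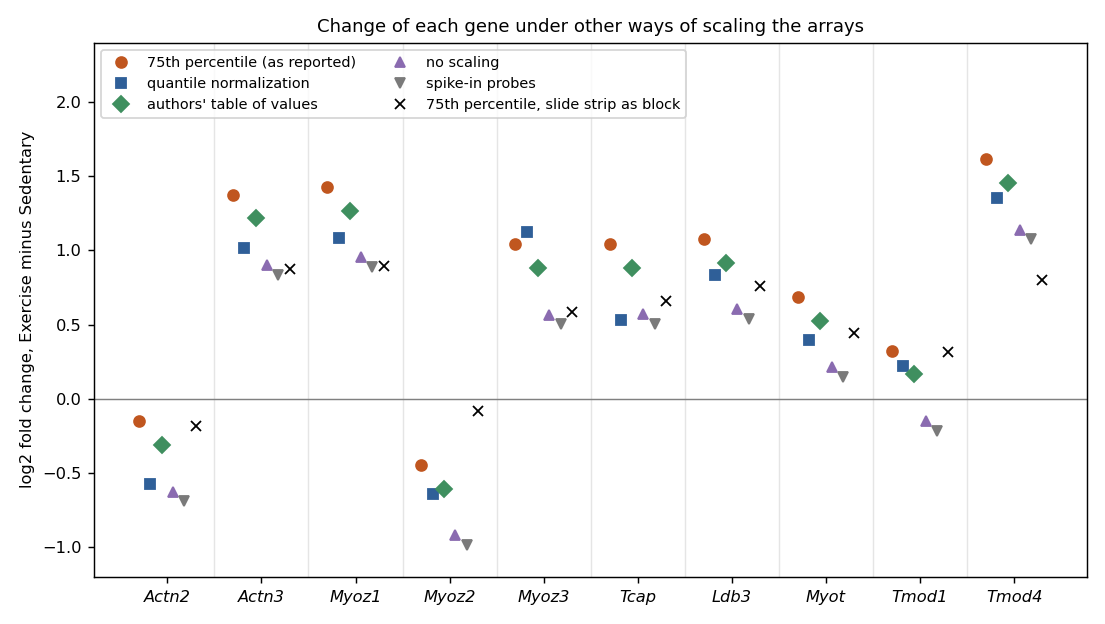
Log2 fold change, exercise minus sedentary, of each of the 10 genes with the 75th percentile scaling of the report, with 4 other scalings and with the slide's strip taken as a block. Actn3, Myoz1, Myoz3, Tcap, Ldb3 and Tmod4 stayed above 0.5 in all 6, Tmod1 fell below 0 without scaling and with spike-in scaling, and Actn2 and Myoz2 stayed below 0 throughout.

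The calls also depended on single arrays. Where leaving out an array left 0 of the 10 genes called, limma called 0 as higher among everything tested too, against 6686 to 8146 with an unadjusted p under 0.05 in either direction. Without sedentary mouse 1, 7 passed, and Tmod1 did not (adjusted p = 0.0696). With the slide's strip taken as a block, which compares the exercise arrays with sedentary mouse 1 alone, 0 of the 10 passed by limma and 6 had an unadjusted p under 0.05. Among everything tested that fit called 0 higher and 3 lower, with 4827 at an unadjusted p under 0.05 in either direction. Directions did not change in any of these fits: Tmod4 stayed between 1.34 and 2.02, Myoz1 between 1.23 and 1.69, Actn3 between 1.15 and 1.63, Ldb3 between 0.99 and 1.23, Tcap between 0.81 and 1.24, Myoz3 between 0.72 and 1.27, Myot between 0.60 and 0.81 and Tmod1 between 0.28 and 0.37 with 1 array left out. Actn2 stayed between -0.24 and -0.10. Myoz2 ran from -0.63 without sedentary mouse 1 to -0.13 without exercise mouse 1, its lowest exercise array, and passed the test in neither (limma adjusted p between 0.224 and 0.703 over the arrays left out).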

How the data were processed

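Total RNA from the quadriceps of 6 mice, with RNA integrity numbers of 8.4 to 9.2, was labelled with Cy3 and hybridized to Agilent SurePrint G3 mouse arrays. Scanned images were turned into spot values by the authors in Feature Extraction 12.1.0.3, and the deposited intensity used here is its processed signal, from which background was subtracted. A second deposited table holds linear intensities whose columns are that signal times 1 factor per array.

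Of 62976 spots per array, 3671 control spots and those with outlier flags were left out, replicate spots were averaged by probe, and log2 values were set relative to the 75th percentile of the array. Gene names for the 56605 probes came from matching transcript accessions, without versions, to a RefSeq gene table of GRCm38.p6, used for names, gene spans and promoters, and 34566 matched. The filter kept the 32726 probes that were well above background on 3 or more arrays, and 22 with a missing value were dropped. The probe with the highest mean stood for its gene, which gave 15745 named genes and 9260 transcripts under the file's own identifier.

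The comparison of exercise with sedentary mice used limma 3.58.1 (R 4.3.3), by lmFit and eBayes, two-sided and without covariates, and was tested on simulated data. There 200 of 25005 genes were changed by 2 on the log2 scale, more than any of the 10 genes here. Of these 200, 90.5% were recovered, with 19 false calls. The genes, lists and pairs were chosen with earlier results of these data known, and no list was tested as a set. From each list the text names up to 2 genes with the largest rise and 2 with the largest fall among those past the adjusted p whose groups do not overlap, besides Capza1, Lep and the skeletal muscle markers, named after their values were seen, and for each of the 10 genes its 3 nearest neighbours. A gene that this rule names is not reported here. Alternatives were other scalings (quantile, median, none, 7 spike-in probes, the deposited table), normexp with an offset of 50 on the median spot and background signals, and other filters and choices of probe. Further ones were each array left out, the replicate number or strip as a block, eBayes with trend and robust, and an unpaired t-test. Samples of a group are separate mice, and with 3 arrays per group their number limits the precision.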

Additional observations from a re-analysis of the deposited data

How the results depend on the processing

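Of 200 values of the 10 genes under 20 alternatives, 107 kept their direction and their side of the threshold, 87 kept the direction and lost the call, 4 gained a call and 2 reversed, Tmod1 without scaling (-0.15) and with spike-in scaling (-0.22). Under these 2 scalings the median of everything tested was itself -0.45 and -0.51, and Tmod1 lay above it in both. Why the other calls moved was not tested. The count of the 10 genes called higher was 3 with quantile normalization and 4 without scaling, with spike-in scaling and in the deposited table. It was 5 with the probe of largest SD and 0 to 7 with 1 array left out. Among everything tested, 1865 were called higher with quantile normalization, 617 without scaling and 343 with spike-in scaling. The deposited table gave 1172, and the probe of largest SD gave 2536. Of the 10 genes, 1, 1 and 2 were called lower with quantile normalization, no scaling and spike-in scaling. Among everything tested, 1363, 11280 and 10584 of 25005 were. Upregulated DEGs among the 10 genes numbered 2 with quantile normalization and 1 without scaling and with spike-in scaling. They numbered 3 with normexp and in the deposited table, and 0 to 6 with 1 array left out. Everything tested held 362 with quantile normalization, 127 without scaling, 121 with spike-in scaling, 192 with normexp and 237 in the deposited table. With the strip as a block and by an unpaired t-test after Benjamini-Hochberg adjustment, 0 of the 10 were called higher and 0 were DEGs. Even so, the t-test gave 8 an unadjusted p under 0.05 and the strip fit 6. The study's methods name that t-test for comparing 2 groups in animal experiments, while its array data were analysed in iDEP. Among everything tested the t-test called 438 higher and the strip fit 0. An unadjusted p under 0.05, in either direction, was seen for 8344 by the t-test and 4827 in the strip fit.

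Of the other sarcomere genes, 2 were called higher and 7 lower with quantile normalization, 1 and 26 without scaling, 0 and 25 with spike-in scaling, 18 and 12 with normexp, 4 and 6 in the deposited table, and 0 and 0 with the strip as a block, all by limma. With the array median 1 was called lower. With 1 array left out, 0 to 16 were called higher and 0 to 5 lower, the highest counts without sedentary mouse 1. Without that mouse limma called 3476 higher and 2060 lower among everything tested. The 26 and 25 of 59 genes called lower without scaling and with spike-in scaling stand beside 11280 and 10584 of 25005. Among everything tested, quantile normalization called 1865 higher and 1363 lower. Those counts were 6169 and 2012 with normexp and 1172 and 3201 in the deposited table. The array median called 872 of everything tested lower.

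Samples with the same replicate number hardly deviated together over all genes (r = 0.015, 0.085 and 0.036 across genes). Such correlations over all genes cannot exclude a pairing that shows in single genes. With the replicate block, 0 of the 10 genes were called higher and 0 were DEGs by limma, and 0 other sarcomere genes were called higher or lower. Of the 10, 8 had an unadjusted p under 0.05 as higher and 1 as lower. Among everything tested that fit called 0 higher and 0 lower, with 8591 at an unadjusted p under 0.05 in either direction. The 4 changes between genes of 1 family kept their direction in each of their alternatives, with 1 array left out between 1.30 and 1.76 for Actn3 minus Actn2, 1.54 and 2.32 for Myoz1 minus Myoz2, 1.02 and 1.90 for Myoz3 minus Myoz2, and 1.01 and 1.69 for Tmod4 minus Tmod1.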
